A study of Danio rerio with 3 samples.

Results

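The lens crystallins of the zebrafish larva were taken as all gene symbols of the deposited feature lists that start with cryaa, cryab, cryba, crybb or cryg. The rule found 54 symbols with 56 identifiers, of 28216 symbols with 31467 identifiers in all. They comprise 3 alpha crystallins, 7 beta A crystallins, 6 beta B crystallins and a large gamma group with 18 crygm2d genes, 11 other crygm genes, 3 crygmx genes, 2 crygn genes and 4 crygs genes. The rule used names only and no measured value.

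Crystallins are the soluble proteins that fill the fibre cells of the eye lens and give it its refractive power. Alpha crystallins are small heat shock proteins that keep other lens proteins in solution, while beta and gamma crystallins share a compact fold and serve mainly as structural proteins. Fish lenses are unusually dense and are rich in gamma M crystallins, a methionine-rich group known from aquatic vertebrates. Fibre cells make crystallin RNA in very large amounts and later lose their nuclei.

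The study labelled RNA made while tissue was being dissociated, and compared 3 ways of preparing single cells with 1 library each. All 3 libraries came from whole wild-type zebrafish larvae at 48 hpf (hours post fertilization), 10 larvae per sample, dissociated in a trypsin-like enzyme mix for 30 min at 37°C with 10 mM 4-thiouridine (4sU), a uridine analogue that is built into new RNA and read as C in place of T after treatment with iodoacetamide (10 mM, 16 h). The dissociation library was fixed in methanol directly. The dissociation and FACS library passed through fluorescence-activated cell sorting with wide gates on size and granularity, and the chilled collection tube also contained 4sU. The dissociation, FACS and ice library had the same sort and a further 30 min on ice before fixation. No library without 4sU was analysed here, and sort, time, 4sU exposure and library cannot be told apart. With 1 library per preparation there is no replicate error, no test and no p-value. Intervals throughout are at the 95% level and cover counting error alone.

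The libraries held 11043, 4609 and 9550 cells (in the order dissociation, FACS, FACS and ice, used throughout) with 50313576, 23095410 and 61231163 UMIs, the unique molecular identifiers that count single RNA molecules. The median cell had 2402, 3143 and 3995 UMIs. Between 11 and 28 cell barcodes were shared by any pair of libraries, and none of these belonged to a cell with 5% or more of its UMIs from crystallins. Doublets were not called.

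Crystallin RNA was abundant after dissociation alone and scarce after sorting. The members summed to 313652, 4115 and 3953 UMIs. This is 6234 UMIs per 1000000 (CPM, 95% Poisson interval 6212 to 6256) in the dissociation library, 178 (173 to 184) after FACS and, with the time on ice, 64.6 (62.6 to 66.6). Their sum was 34.99-fold lower after FACS than after dissociation alone (33.9 to 36.1), and 96.6-fold lower after FACS and ice (93.6 to 99.6). Both comparisons share the dissociation library. Fewer lens cells, less RNA per lens cell and less crystallin RNA outside lens cells cannot be told apart in such sums.

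Most of what was left in the sorted libraries came from 5 cells. A single cell held 83.1% of all crystallin UMIs of the FACS library, and 4 cells held 63.4% of those after FACS and ice. Without cells that had 5% or more crystallin UMIs, the sums were 5436, 30.1 and 23.6 CPM. The sorted libraries then were 180.7-fold and 230.3-fold lower than the dissociation library. Between the sorted libraries, crystallins were 2.76-fold lower after FACS and ice (2.64 to 2.88), but only 1.27-fold lower without those cells. The direction turned when the 5% of cells with most UMIs were left out (2.29-fold higher after FACS and ice) or when the shares of single cells were averaged (3.12-fold higher). The order of the sorted libraries thus depends on a few cells and on how cells are weighted.

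Of the 54 members, 49, 38 and 47 had at least 1 UMI, and 29 had at least 250 UMIs over the 3 libraries. These 29 carried 99.7% of the crystallin UMIs of the dissociation library. UMIs were counted at the 3′ end, so levels are per molecule and need no correction for length. Close copies share sequence, however, and reads between them may be split or lost. All 18 crygm2d genes lie on 1 chromosome in the GRCz12tu assembly of RefSeq, and each of the 21 protein-coding genes from the first to the last of them is a crystallin. The symbols crygm2d8 and crygm2d9 each stand for 2 identifiers, which were summed, and 3 identifiers have another crygm2d name in a newer table of gene names. Values of single crygm2d genes are therefore uncertain.

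The crygm2d genes led the dissociation library with 4222 CPM, and their sum was 92.0 CPM after FACS and 33.6 CPM after FACS and ice. Within the group, CPM ranged from 91.6 to 516 (median 229.8) in the dissociation library, from 0.606 to 11.04 (median 5.46) after FACS and from 0.408 to 4.57 (median 1.91) after FACS and ice. Each of the 18 genes was thus lower in both sorted libraries than the lowest of them was after dissociation alone. The highest symbol was crygm2d8, with 516, 9.44 and 4.57 CPM. It was followed by crygm2d9 with 392, 6.84 and 2.32 CPM. Both ranks come from summing 2 identifiers each. After dissociation those of crygm2d8 had 11666 and 14290 UMIs, and those of crygm2d9 had 11178 and 8562. Taken singly, each was below the 15982 UMIs of crygm2d17, which has 1 identifier. The gene crygm2d17 had 318, 11.04 and 3.58 CPM, which made it the highest crygm2d gene of the FACS library. The gene crygm2d13 had 309.6, 6.93 and 2.48 CPM. For crygm2d2 the values were 270.1, 5.63 and 1.93 CPM. For crygm2d1 they were 263, 4.29 and 1.89 CPM. Neighbours in the order of levels were not all distinct: counting intervals overlapped in 13 of the 28 neighbouring pairs among the 29 members after dissociation, crygm2d2 and crygm2d1 among them. The gene crygm2d3 had 260.3, 6.84 and 2.24 CPM. For crygm2d7 the values were 239, 4.33 and 1.98 CPM. For crygm2d21 they were 233, 6.84 and 1.58 CPM. Between the sorted libraries crygm2d16 had the largest difference of the group, 4.66-fold (2.96 to 7.36), followed by crygm2d21 with 4.32-fold (3.35 to 5.56). Without crystallin-rich cells the direction turned for crygm2d21, with a fold lower of 0.601 (0.321 to 1.12) at 12 and 53 UMIs. This interval included no difference. For crygm2d16 the fold was then 4.87 (1.80 to 13.2), at 11 and 6 UMIs. The gene crygm2d10 had 226, 7.06 and 2.38 CPM. For crygm2d20 the values were 202, 5.28 and 2.07 CPM. For crygm2d12 they were 189, 5.85 and 1.45 CPM. After dissociation these copies lay just under the median of the group. The gene crygm2d4 had 182, 4.03 and 1.26 CPM. For crygm2d5 the values were 172, 2.94 and 1.36 CPM. For crygm2d16 they were 91.6, 2.21 and 0.474 CPM.

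The remaining crygm2d genes, crygm2d14, crygm2d15 and crygm2d6, were the lowest of the group after FACS. The gene crygm2d14 had 139, 0.996 and 0.784 CPM, a difference of 140.0-fold after FACS (93.0 to 211). The gene crygm2d15 had 121, 0.606 and 0.408 CPM and with them the largest differences of all members, 199.6-fold after FACS (118 to 337) and 296-fold after FACS and ice (200.1 to 439). The gene crygm2d6 had 97.3, 0.866 and 0.800 CPM. The group as a whole was 45.9-fold lower after FACS (44.0 to 47.9), so with all cells included these copies stood apart from the sum beyond counting error. By identifier they were not alone. Of the 2 identifiers summed as crygm2d8, 1 had 11666 UMIs after dissociation and 41 after FACS. That is a lower ratio than the 4893 and 20 UMIs of crygm2d6. The other identifier had 14290 and 177 UMIs. The share of crygm2d14, crygm2d15 and crygm2d6 in crystallin UMIs after FACS differed between the rich cell and the others. The single crystallin-rich FACS cell had 0.877% of its crystallin UMIs from these 3 genes (30 of 3421), whereas all other FACS cells together had 3.89% and the dissociation cells under 5% had 5.77%. After FACS and ice they had 3.79% in the crystallin-rich cells and 1.87% in the others. Without crystallin-rich cells crygm2d15 was 353-fold lower after FACS (168 to 740.4) and 1639-fold lower after FACS and ice (615 to 4367), at 7 and 4 UMIs. In the same cells crygm2d14 was 257-fold lower after FACS (142 to 465) and crygm2d6 216-fold (112 to 415). The median of the 29 members was then 216-fold, and the largest fold was 437, that of crygmxl2. All 3 intervals included this median, so the 3 copies did not stand apart after FACS without the rich cell. These 3 genes were grouped after their values were seen.

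Among the beta A crystallins, 5 of 7 genes reached 250 UMIs, and the group summed to 972, 43.1 and 15.7 CPM. Beta crystallins are structural proteins that form oligomers in the lens. The gene cryba4 had 317, 14.9 and 5.60 CPM and was the highest of all members after FACS and ice. For cryba1b the values were 198, 7.06 and 2.73 CPM. For cryba1l1 they were 187, 8.75 and 2.92 CPM. After dissociation their counting intervals did not overlap. The gene cryba2b had 138, 7.75 and 2.60 CPM. For cryba2a the values were 129, 4.33 and 1.63 CPM. The group was 22.5-fold lower after FACS (21.2 to 23.99) and 61.7-fold lower after FACS and ice (57.9 to 65.8), a smaller difference than that of the crygm2d genes, with intervals that do not overlap. The genes cryba1a and cryba1l2 had 73 and 79 UMIs in the dissociation library and between 3 and 11 UMIs after sorting.

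Among the beta B crystallins, 3 of 6 genes reached 250 UMIs, and the group summed to 510.4, 25.0 and 8.62 CPM. The gene crybb1 had 340.1, 16.8 and 5.29 CPM, the highest level of all members after FACS. For crybb1l2 the values were 89.1, 4.89 and 1.62 CPM. For crybb1l1 they were 78.8, 2.64 and 1.19 CPM. The group was 20.4-fold lower after FACS (18.8 to 22.2) and 59.2-fold lower after FACS and ice (54.3 to 64.5). Among the low genes, crybb1l3 had 93, 10 and 5 UMIs, and crybb3 had 23, 3 and 21 UMIs. The gene crybb3 was 1.33-fold lower after FACS and ice than after dissociation, and the counting interval of this fold (0.738 to 2.41) included no difference.

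The remaining gamma crystallins were carried by 3 genes. The gene crygn2, of the gamma N group that is thought to stand between beta and gamma crystallins, had 296, 11.2 and 3.30 CPM. The gene crygmxl2 had 195, 2.90 and 1.49 CPM. The gene crygmx had 29.2, 3.38 and 1.143 CPM. It was 8.64-fold lower after FACS (6.88 to 10.8) and 25.5-fold lower after FACS and ice (20.1 to 32.4), the smallest difference among the 29 members. Some low genes had no UMI left after sorting. The gene crygmxl1 had 132 UMIs and none in either sorted library, which makes it at least 20.2-fold lower after FACS and at least 53.5-fold lower after FACS and ice (floor of 3 counts per library). The gene crygm5 had 122, 0 and 1 UMIs. The gene crygm2f had 70, 0 and 2 UMIs. The crygs group, which holds orthologues of gamma S crystallin, summed to 30, 1 and 6 UMIs over 4 genes. The genes crygm2a, crygm6 and crygm7 had no UMI in any library.

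Few UMIs of alpha crystallins were counted in these libraries. The gene cryaa, which encodes the lens alpha A chaperone, had 123, 9 and 2 UMIs (2.44, 0.390 and 0.0327 CPM). The group summed to 131, 11 and 14 UMIs, or 2.60, 0.476 and 0.229 CPM. Its alpha B gene cryabb, known in vertebrates also from muscle and other tissues, had 8, 2 and 10 UMIs, and its other alpha B gene cryaba had 0, 0 and 2 UMIs. At these counts no difference in the alpha B genes was detectable.

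**Figure D1:**
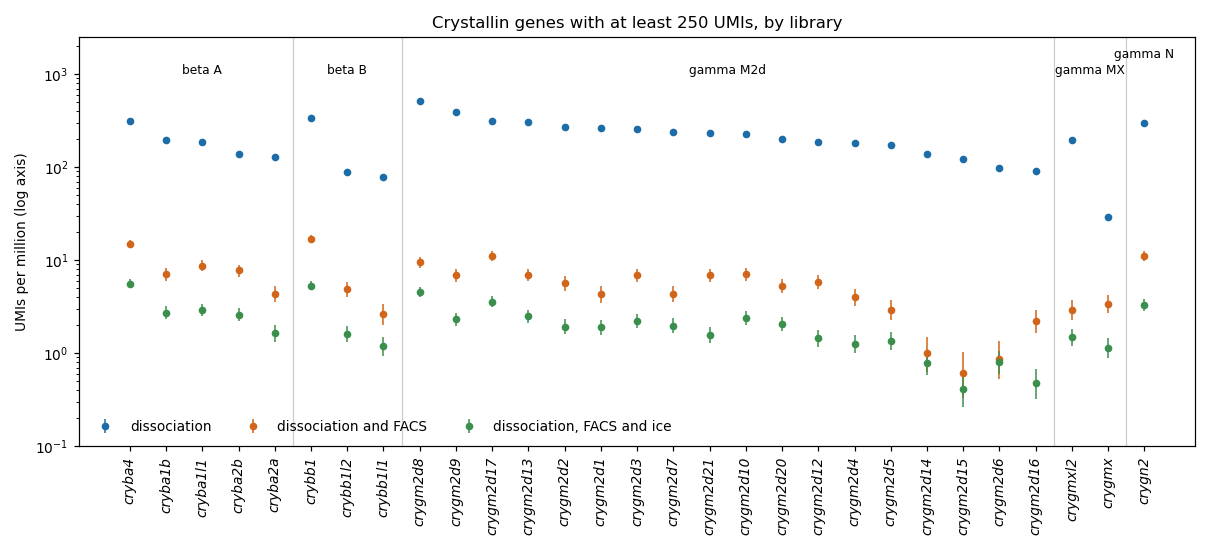
UMIs per 1000000 (CPM, log axis) of the 29 crystallin genes with at least 250 UMIs, by gene family, in the 3 libraries, with 95% Poisson intervals for counting error. Every gene is highest after dissociation alone (29.2 to 516 CPM), and crygm2d14, crygm2d15 and crygm2d6 are lowest after FACS.

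Nearly all genes differed far less than the members did in both comparisons with the dissociation library. Of genes with at least 100 UMIs over the pair, 5.7% of 12161 were at least 2-fold lower after FACS, and 33 of 33 crystallins were. For FACS and ice, 4.56% of 13882 genes were at least 2-fold lower, and 32 of 32 crystallins were. Some members, such as crygmxl1 with 132 and 0 UMIs, passed this minimum only through the dissociation library, where they were high. With no minimum, 38 of 45 members were at least 2-fold lower after FACS, and 40 of 45 after FACS and ice. No share of all genes is given for that setting. No member was at least 2-fold higher in either comparison, against 1.41% and 7.27% of all genes. The median member was 32.3-fold lower after FACS and 104.6-fold lower after FACS and ice, while the median over all genes tested was 1.03-fold and 1.16-fold higher in the sorted library. Of the 100 genes with the lowest ratio, 21 and 31 were crystallins. Between the sorted libraries, 0.633% of 12944 genes were at least 2-fold lower after FACS and ice, and 24 of 25 crystallins were; 4.01% of genes and 0 crystallins were at least 2-fold higher. Without the crystallin-rich cells only 5 members kept 100 UMIs, and 0 of them were 2-fold lower.

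The share of each family also differed between libraries. The crygm2d genes gave 67.7% of crystallin UMIs after dissociation (Clopper-Pearson 67.6 to 67.9), 51.6% after FACS (50.1 to 53.2) and 52.0% after FACS and ice (50.4 to 53.6). Beta A genes gave 15.6%, 24.2% and 24.4%. Beta B genes gave 8.19%, 14.02% and 13.4%. In cells under 5% crystallin the direction was the same, with 67.8%, 46.4% and 42.8% from crygm2d genes. Beta crystallins thus held a larger part, and crygm2d genes a smaller part, of the crystallin RNA in both sorted libraries, with or without the rich cells.

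Lens genes outside the crystallins were used to see whether the lens as a whole behaved in this way. Of the 18 lens fibre genes of the list, 17 were in the feature lists (not bfsp1), and 10 had at least 100 UMIs over each pair with the dissociation library. Of these 10, 9 were at least 2-fold lower after FACS, and 9 after FACS and ice, with a median of 13.1-fold and 32.1-fold. These folds rest in part on few cells. The single crystallin-rich FACS cell held 36 of the 43 lim2.4 UMIs of its library, 23 of 33 for grifin and 6 of 20 for lim2.3. After FACS and ice the 4 crystallin-rich cells held 13 of 29 lim2.4 UMIs. Folds without these cells are not given here. The gene lim2.4, a member of the lens intrinsic membrane protein family, had 36.4, 1.86 and 0.474 CPM. Its relative lim2.1 had 13.4, 0.476 and 0.408 CPM. The gene lim2.3 had 10.3, 0.866 and 0.457 CPM, and lim2.5 had 2.58, 0.173 and 0.0490 CPM. These membrane proteins are abundant in fibre cells. The gene bfsp2, which encodes a beaded filament protein of the fibre cell, had 6.26, 0.260 and 0.0490 CPM. The lens water channels mipb and mipa had 6.16, 0.823 and 0.196 CPM and 3.78, 0.260 and 0.114 CPM. The gene grifin, which encodes a lens galectin, had 3.70, 1.43 and 0.408 CPM. The gene lgsn, for the lens protein lengsin, had 1.95, 0.260 and 0.114 CPM. The gene dnase1l1l, a nuclease that clears DNA from fibre cells, had 92, 0 and 3 UMIs. The exception was lim2.2, with 2.405, 1.73 and 2.205 CPM. The other listed fibre genes (gja8a, gja8b, gja3, hsf4, tdrd7a and caprin2) had at most 8 UMIs in any library.

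Most genes for transcription factors and the epithelium of the lens differed less. Of 8 tested genes of this list, 0 were 2-fold lower and 0 were 2-fold higher in any pair of libraries. The eye and brain regulators pax6a and pax6b had 22.0, 21.0 and 23.0 CPM and 19.2, 16.5 and 19.8 CPM. The gene prox1a had 14.1, 11.2 and 12.1 CPM. The gene pitx3, a regulator of lens development that other tissues use too, had 4.11, 6.88 and 5.10 CPM. For sox1a the values were 5.27, 6.06 and 4.26 CPM. For sox1b they were 5.68, 5.72 and 4.57 CPM. For mafa they were 4.59, 3.64 and 3.32 CPM. For the receptor gene epha2a they were 3.38, 3.68 and 3.54 CPM. Most of these genes are used outside the lens as well. The exception was foxe3, a regulator of the lens epithelium with too few UMIs to be among the 8, which had 0.278, 0.173 and 0.0653 CPM (14, 4 and 4 UMIs). It was 1.61-fold lower after FACS, short of 2-fold, and 4.26-fold lower after FACS and ice. These folds rest on 4 UMIs in each sorted library and were given no counting interval. The gene maf was not in the feature lists.

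Crystallin RNA was present in nearly every cell of the dissociation library and in a small part of the cells of the others. At least 1 crystallin UMI was found in 99.8% of cells after dissociation (11021 of 11043), in 10.7% after FACS (9.80 to 11.6) and in 11.1% after FACS and ice (10.5 to 11.8). The median cell held 16, 0 and 0 crystallin UMIs. The order of dissociation and sorted libraries was the same with cells thinned to 1000 UMIs each, where 91.7% of 8547 cells, 3.99% of 4187 cells and 2.87% of 8426 cells had a crystallin UMI. Shallower cells, 2496, 422 and 1124 in number, were left out there. The thinned cells held a mean of 7.99, 0.0824 and 0.104 crystallin UMIs.

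Red blood cells, which do not make crystallins, served as the background. Cells with at least 20% of UMIs from haemoglobin genes numbered 506, 345 and 628, with a median depth of 9645.5, 9194 and 7778 UMIs. After dissociation 99.4% of them held a crystallin UMI, with a median of 12, and crystallins made up 0.281% of their UMIs (0.277 to 0.286). This share was 0.0804% after FACS, where the single crystallin-rich cell was itself rich in haemoglobin, and 0.00100% (43 UMIs) without that cell. After FACS and ice it was 0.00148% (104 UMIs), and 10.7% of the cells held a crystallin UMI. A crystallin UMI in a cell is therefore not read as expression, since cells that should lack these genes held them too. The haemoglobin-rich cells were deeper than the median cell, and by share of UMIs the FACS cells under 2% crystallin stood at 0.00301% and those after FACS and ice at 0.00236%, above the haemoglobin-rich cells of the same libraries. Thinned to 1000 UMIs, 73.2%, 3.04% and 3.62% of the haemoglobin-rich cells had a crystallin UMI; most of their UMIs are haemoglobin, which leaves fewer for other RNA.

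The median number of crystallin UMIs per dissociation cell changed far less than depth did. From the decile of cells with the fewest UMIs to the one with the most, the median depth went from 561 to 14706 UMIs, while the median number of crystallin UMIs stayed between 10 and 27. The mean number rose more, from 17.7 in the first decile to 33.2 in the ninth and 77.2 in the last. The last decile holds the cell with 21595 crystallin UMIs. The crystallin share of a decile went from 3.14% in the first to 0.406% in the last. In both sorted libraries the median number was 0 in every decile, and the share of cells with a crystallin UMI ran from 7.38% to 15.8% after FACS and from 7.75% to 19.9% after FACS and ice.

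**Figure D2:**
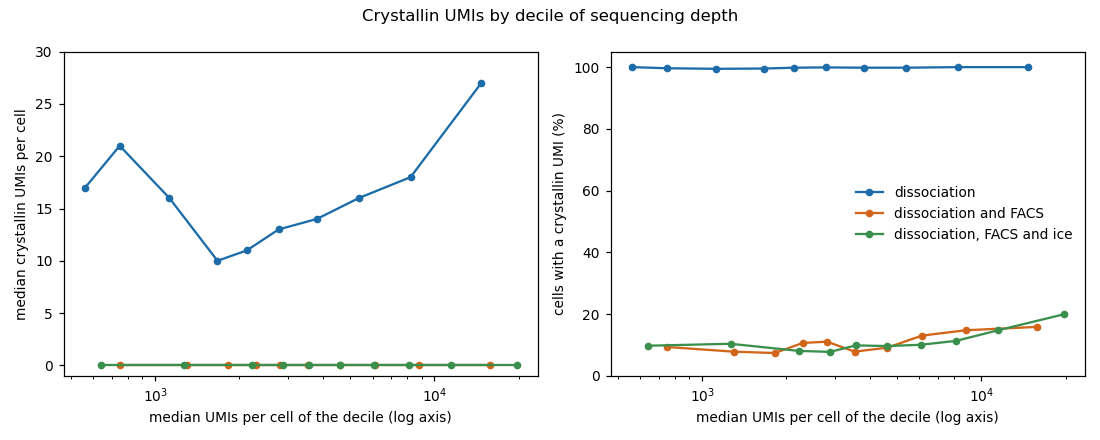
Median number of crystallin UMIs per cell (left) and percentage of cells with a crystallin UMI (right) in each decile of cells by total UMIs, against the median UMIs of the decile (log axis), 1 line per library. In the dissociation library the median stays between 10 and 27 UMIs over the whole range of depth. Nearly all of its cells are positive (at least 99.46% in every decile), while the median of both sorted libraries is 0.

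The make-up of crystallin RNA was close, but not equal, in and outside rich cells of the dissociation library. The crygm2d genes gave 66.5% of crystallin UMIs in the 7 cells at 20% or more (65.9 to 67.1), 67.8% in cells under 5% (67.7 to 68.0) and 68.6% in haemoglobin-rich cells. Beta A genes gave 16.8% (16.3 to 17.2), 15.5% (15.4 to 15.6) and 15.2% in the same classes. For both groups the intervals of the first 2 classes did not overlap. The 11 other crygm genes had 0 UMIs in the 7 cells and 196 in cells under 5%. The lens fibre list stood at 14.6 UMIs per 1000 crystallin UMIs in cells at 5% or more (13.4 to 15.8), 14.3 in cells under 5% (13.8 to 14.7) and 13.1 in haemoglobin-rich cells (11.3 to 15.1), with overlapping intervals. For lim2.4 alone these values were 6.46, 5.74 and 5.93. The largest of the 7 cells gave 21595 of their 24597 crystallin UMIs. It also gave 338 of the 611 fibre list UMIs of cells at 5% or more. The values of both rich classes thus rest to a large part on 1 cell, and the intervals do not cover differences between cells. After sorting the fibre list stood at 27.2 in the FACS cell at 5% or more and 138 in the other FACS cells, and at 13.6 and 170.2 in the same classes after FACS and ice. Fibre list genes other than lim2.2 gave 80.7 and 76.8 in the other cells of the sorted libraries.

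Few cells were made up of crystallin RNA to a large part. At least 20% of UMIs came from crystallins in 7 cells after dissociation (0.0634% of cells, 0.0255 to 0.131), in 0 of 4609 after FACS (exact upper limit 0.0800%) and in 3 after FACS and ice (0.0314%, 0.00648 to 0.0918). No cell of any library lay between 20% and 30%. The limit of 5% gave 288, 1 and 4 cells (2.61%, 0.0217% and 0.0419%), but in the dissociation library 717 further cells lay between 4% and 5%, and 232 of the 288 lay between 5% and 6%. Their median depth was 789 UMIs against 2402 in the whole library. The class at 5% is thus a range of shallow cells there, not a type, and only the cells above 20% form a separate set.

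The 7 dissociation cells at 20% or more ranged from 39.7% to 74.6% crystallin. The largest had 28949 UMIs, 21595 of them from 34 crystallin genes, together with 338 UMIs of the fibre list (166 of lim2.4, 49 of lim2.1, 46 of lim2.3, 31 of mipa and mipb and 18 of bfsp2), 18 alpha crystallin UMIs and 0.104% haemoglobin. It is lens fibre-like by the list, with 10 fibre genes detected. The other 6 had 501 to 1888 UMIs, 27 to 31 crystallin genes and 2 to 23 UMIs of the fibre list. The 3 cells after FACS and ice had 994, 733 and 2202 UMIs, of which 74.9%, 61.0% and 55.0% came from crystallins. Depths below 1000 UMIs leave few other genes to tell a whole cell from a droplet with lens RNA. Another cell of that library had 7.68% crystallin among 1367 UMIs. The FACS cell had 24507 UMIs, of which 3421 (13.96%) came from 32 crystallin genes and 53.8% from haemoglobin genes. It also held 93 UMIs of 8 fibre genes, with 36 of lim2.4 and 23 of grifin. Whether it held more than 1 cell was not tested.

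The leading crystallin differed between these cells. After dissociation crygm2d genes gave 66.1% to 72.6% of crystallin UMIs in 6 of the 7 cells and 45.5% in the other, in which crybb1 was highest and beta crystallins gave 42.5%. After FACS and ice the shares were 72.1%, 74.3% and 40.5%, and the last again had crybb1 as its highest member, with 48.1% from beta crystallins. The FACS cell had 52.7% from crygm2d genes and crybb1 as its highest member. Cells led by crybb1 and cells led by a crygm2d gene thus occurred in both libraries that had more than 1 such cell.

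**Figure D3:**
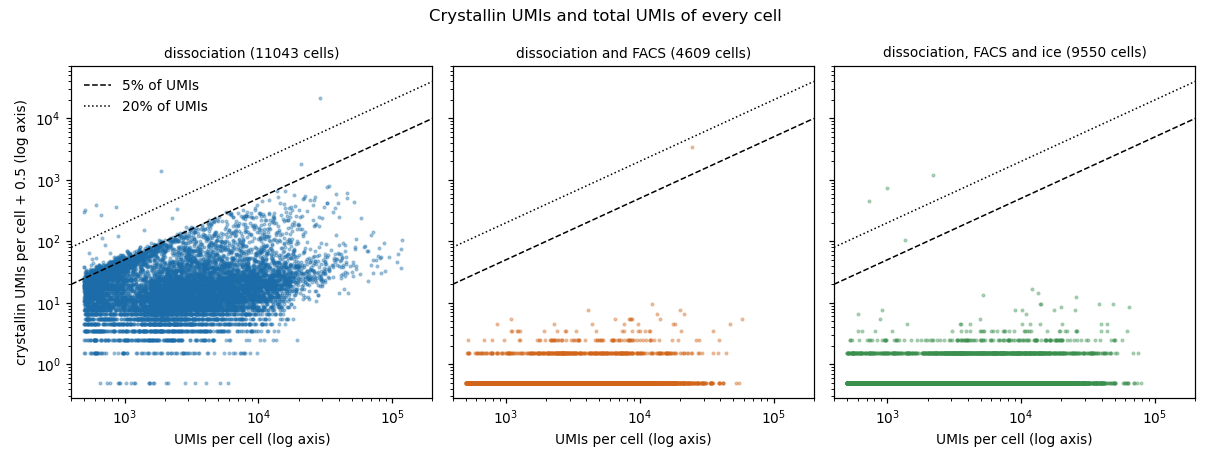
Crystallin UMIs plus 0.5 against total UMIs (both log axes) for every cell of the 3 libraries; the broken lines mark 5% and 20% of a cell's UMIs. The dissociation library shows a broad band of crystallin UMIs in nearly all of its 11043 cells and 7 cells above the 20% line, while the sorted libraries show mostly 0 to a few UMIs, 1 FACS cell between the lines, and 3 cells above the 20% line after FACS and ice.

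Outside the crystallins, the genes with the highest level in cells at 5% or more, relative to all other cells of the same library, were CR391987.1, lctla, lim2.4, si:ch211-255g12.6, lim2.5, cx23, endou2, mipa, capn3a and mipb. They were ranked by the geometric mean of the ratio of CPM over the 3 libraries, 1 UMI added to each sum, among genes with at least 20 UMIs in these cells. The cells were chosen by crystallin content, so these ratios describe the cells and test nothing. The ranking rests on 1 rich FACS cell and 4 rich cells after FACS and ice. Counts there were low for some genes: lctla had 1 and 1 UMIs, CR391987.1 had 8 and 2, and mipa had 5 and 0. The fibre list held 4 of the 10. After dissociation lim2.4 was 26.6-fold, mipa 28.3-fold and mipb 16.8-fold higher in the rich cells. The largest of these cells alone held 166 of their 271 lim2.4 UMIs. It also held 31 UMIs of mipa and mipb, which had 29 and 30 UMIs in all rich cells of that library. The gene cx23, a gap junction connexin, was 28.1-fold higher, and capn3a, a calpain protease, was 28.6-fold higher. The gene si:ch211-255g12.6 had 455, 117 and 8 UMIs in rich cells, and lim2.4 had 271, 36 and 13.

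Crystallin reads were then followed through the authors' cell type tables, which give reads per gene summed over the cells of a type. Among the 16 cell types of these tables none was the lens, and 12 types had a table in all 3 libraries. Crystallins took 5847, 219 and 21.8 reads per 1000000 over all tables of a library. The tables held 3.62, 10.7 and 1.13 crystallin reads per crystallin UMI of the matrices. Which cells of a matrix entered the tables is not known, so these values need not match the CPM over all cells. After dissociation every table held them, from 1424 reads per 1000000 in head muscle to 42717 in muscle, with a median of 4411. The second highest was pigment cells with 7718, and the retina, the tissue next to the lens, had 4340 and the nervous system 5708. After FACS the tables ran from 0.554 in macrophages (2 reads) to 844 in blood, with a median of 21.9. Blood alone held 89.3% of the crystallin reads of that library, and blood vessels followed with 189.6 reads per 1000000. In the UMI matrix 1 haemoglobin-rich cell held 3421 of the 4115 crystallin UMIs of the FACS library. The other 344 haemoglobin-rich cells held 43, so the blood value may rest on 1 cell, which was not tested. After FACS and ice the range was 5.60 in the pharynx to 70.9 in blood vessels, with a median of 24.7. The lowest table of the dissociation library was thus 1.69 times the highest of the sorted libraries, so that the values of the tables did not overlap. That highest table was FACS blood, and without it the highest of the sorted libraries was 189.6.

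The muscle table of the dissociation library stood out. It held 301690 crystallin reads, 26.6% of those of the library, and crystallins were 4.27% of its reads, 9.68 times the median table. The lens fibre list stood at 545 reads per 1000000 there, against a median of 56.1 in the other 13 tables of the library. Haemoglobin genes, which mark red blood cells, were also higher there, at 56105 reads per 1000000 against a median of 14989. Muscle markers stood at 26030 reads per 1000000 in it, above the median of 3473 in the others and below the 188507 of head muscle. No muscle table of the sorted libraries was among those analysed here. In the UMI matrix, cells with 2% to 10% crystallin had 2.61% of their UMIs from muscle markers on average, against 0.653% in cells under 2%. The former class was shallower, with a median of 788 UMIs against 3159. The part of depth and of muscle RNA in the table's value was not tested. The tables do not name their cells, so it is not known which of them took in the cells at 20% or more, or whether any did.

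**Figure D4:**
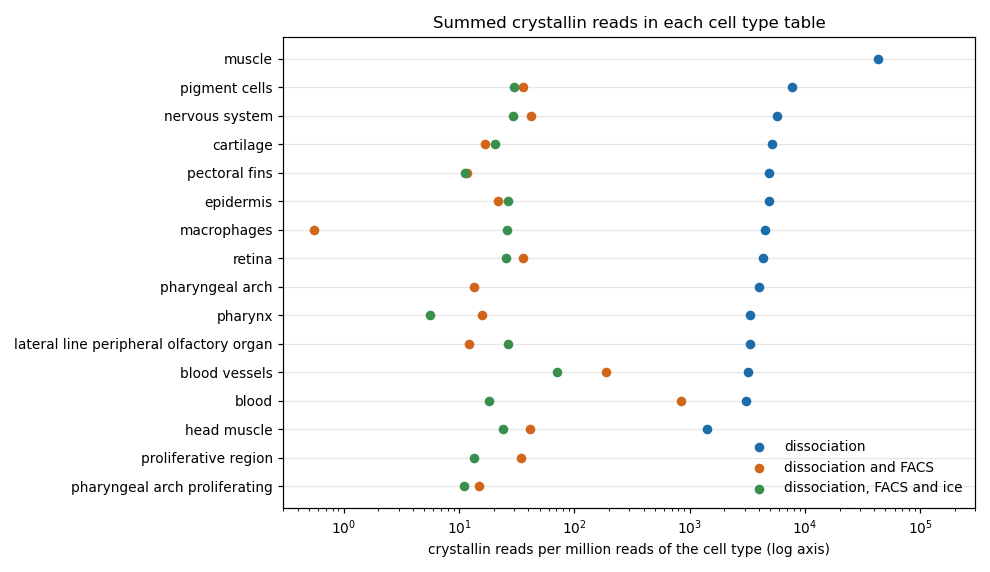
Summed crystallin reads per 1000000 reads (log axis) in each cell type table, 1 point per table and library. The 14 dissociation tables lie between 1424 and 42717, with muscle highest, and all tables of the sorted libraries lie at or under 844.

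Over the tables of a library, the genes whose reads per 1000000 followed summed crystallins most closely differed between libraries. Over the 14 tables of the dissociation library, they included impdh1b (Spearman rho 0.96), zgc:175066 (0.95), snap25a (0.94) and kif3cb (0.91). Over the 15 tables after FACS, they were atg4da (0.79), cbln1 (0.76), ankrd16 (0.74), si:ch211-145b13.6 (0.74) and pts (0.73). Over the 14 tables after FACS and ice, they were gtf2h5 (0.90), prnprs3 (0.88), zgc:162989 (0.87), rcan1a (0.87) and smim29 (0.87). None of the genes named here appears for more than 1 library. The tables of a library share its preparation and depth, and 11452, 11253 and 12228 genes were ranked, so these are descriptions only.

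Labelling was read from T-to-C substitutions, which 4sU causes, and from the other 11 substitution types, which it does not. Over members with at least 250 reads, the median T-to-C rate was 0.0531% of T positions in the dissociation library (33 members, interval of the median 0.0380 to 0.0673), 0.0280% after FACS (26 members, 0.0180 to 0.0444) and 0.0321% after FACS and ice (4 members, lowest 0.00910 and highest 0.114). Over all genes with as many reads the medians were 0.190%, 0.223% and 0.296%. The members' median A-to-G rate, which 4sU does not cause, was 0.0580%, 0.0581% and 0.0374%. T-to-C exceeded A-to-G in 10 of 33, 6 of 26 and 3 of 4 members, and in 61.2%, 63.3% and 68.5% of all genes. The rate of most crystallins therefore lay at the level of other substitutions.

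Members with a higher rate were few. After dissociation 6 members lay above the median of all genes: crygm2d16, crygm2d13, cryba2b, crygm5, crygm2d12 and crygm2d9. After FACS 5 did, all of them among these 6. The other 27 members of the dissociation library had 0.0265% to 0.168%. The gene crygm2d16 had the highest T-to-C rate, 1.78%, with no other substitution above 0.492%. Over the 13 dissociation tables with at least 100 of its reads the rate stayed between 1.58% and 1.94%, whatever the cell type. After FACS it was 1.02% (453 reads). The gene crygm2d13 had 1.145% T-to-C and 1.74% A-to-G. The gene cryba2b had 0.812% T-to-C, 0.863% A-to-G and 1.53% A-to-C. The gene crygm2d9 had 0.362% T-to-C and 0.638% A-to-G. For 3 of these 6 members, then, a substitution type that 4sU does not cause was higher than T-to-C. The gene crygm2d12 had 0.568% T-to-C with at most 0.231% of another type, and crygm5 had 0.730% T-to-C over 409 reads and 0 labelled entries. The gene crygm2d15 lay just under the median of all genes with 0.168% T-to-C, beside 3.48% C-to-T. Differences between the sequenced larvae and the reference, reads of 1 copy placed on another, and new RNA were not tested as sources, and no filter for sequence variants is stated for the tables.

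**Figure D5:**
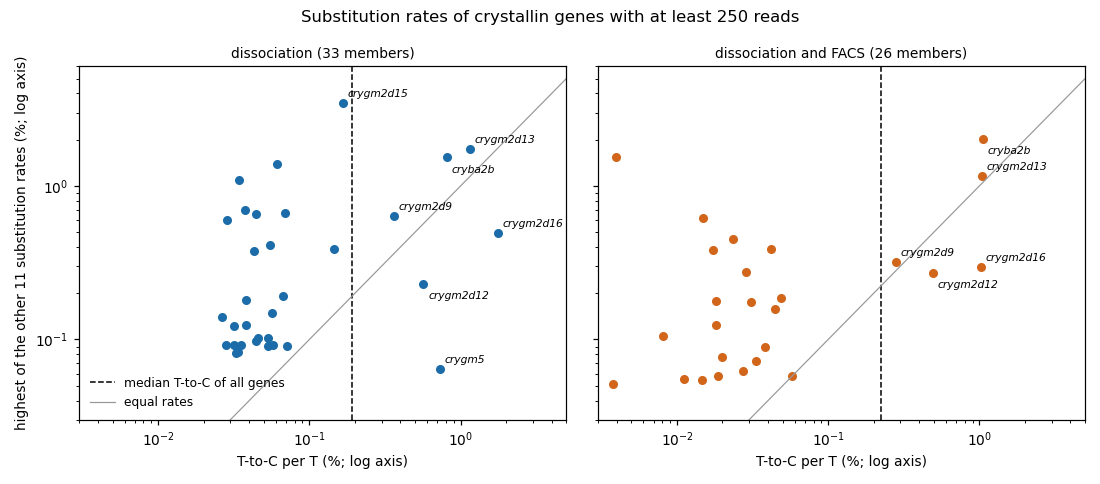
T-to-C rate against the highest of the other 11 substitution rates (both in percent, log axes) for each crystallin with at least 250 reads in the dissociation library (33 members) and after FACS (26 members); the broken line is the median T-to-C rate of all genes. Most members lie left of this line, and several of those right of it, such as cryba2b and crygm2d13, lie above the line of equal rates.

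Only crygm2d16 passed the limit for high labelling, which is labelled entries (2 or more T-to-C substitutions) for at least 10% of at least 250 reads. It did so in the dissociation library with 22.2% (21.5 to 22.9) and after FACS with 10.4% (7.72 to 13.6). This is 1 of 33 and 1 of 26 members, beside 0.592% and 0.31% of all genes. After FACS and ice 0 of 4 members passed, beside 0.94% of all genes. Reads and labelled entries are not counted in the same way, so this percentage is no share of molecules. Per 100 UMIs of the gene there were 67.2 and 92.2 entries, respectively. After FACS all 47 labelled entries of crygm2d16 lay in the blood table, and the interval of its percentage included the limit of 10%. Of its 51 FACS UMIs, 11 remained without the crystallin-rich cell. Alone, crygm2d16 gave 57.7% of all labelled crystallin entries of the dissociation library. The median member had 0.0102% labelled entries there, against 0.195% over all genes.

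Labelling was also read from the lists of labelled genes per cell. In the dissociation library 141516 detections of a crystallin in a cell included 2591 labelled ones, or 1.83% (1.76 to 1.90), against 2.80% over all genes. Of these, 92.1% fell on crygm2d16, crygm2d9, crygm2d15 and crygm2d13. The gene crygm2d16 was labelled in 1200 of the 2853 cells that had it (42.1%, 40.2 to 43.9). The gene crygm2d9 was labelled in 7.03% of its cells, crygm2d15 in 6.68% and crygm2d13 in 5.74%. Without these 4 genes, picked after their values were seen, 204 of 120475 detections were labelled, or 0.169% (0.147 to 0.194). In the sorted libraries the labelled share of the other 50 members was 1.23% after FACS (8 of 652 detections, 0.531 to 2.403) and 0.781% after FACS and ice (11 of 1408, 0.391 to 1.39), against 3.73% and 4.12% over all genes. With all members included, the labelled share was 2.95% after FACS (22 of 746, 1.86 to 4.43), an interval that includes the value of all genes, and 1.43% after FACS and ice (22 of 1537, 0.899 to 2.16), below it. Since the 4 genes were left out for their high label and nothing was left out of all genes, the shares without them are a description only.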

How the data were processed

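Per the labels, whole larvae gave 3 droplet libraries (3′ single-cell RNA-seq), 1 per preparation. Per the paper's methods the authors demultiplexed reads with bcl2fastq 2.19, mapped them with Cell Ranger 6.1.1 to GRCz10 and added mismatch tags with SAMtools 1.14. The authors deposited UMI counts per gene and cell, lists of detected and labelled genes per barcode, and, per cell type, read counts and substitution rates, the latter as a ratio of substitutions to reference positions at a base quality of at least 20. These ratios can exceed 1 in genes with few reads.

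UMIs of identifiers with 1 symbol were summed, and CPM is UMIs per 1000000 UMIs of a library. Rates of a gene were averaged over tables with reads as weights, and joined gene names were left out. Intervals are exact Poisson for sums, Clopper-Pearson for shares, normal on the log scale for ratios and order statistics for medians, all at 95%. Counts under 3 were set to 3 in calls of 2-fold. Crystallin-rich cells had at least 5% of UMIs from members, and haemoglobin-rich cells at least 20% from symbols starting hba or hbb. Thinning drew UMIs without replacement. Members with at least 250 UMIs were named with all values, other genes by their lists or ranks. Calls of 2-fold were run on simulated counts with counting error alone, in which the changes lay well past the limit. Variation between preparations was not simulated, so this run says nothing about it. The members and lists were chosen with earlier results of these data known. Python 3.11.15, numpy 2.4.6, pandas 2.3.3, SciPy 1.17.1 and matplotlib 3.10.9 were used. Total counts were 50313576, 23095410 and 61231163 UMIs, and 3 UMIs in a library correspond to 0.0596, 0.130 and 0.0490 CPM. A gene that the ranking over cell type tables selected is not reported here.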

Additional observations from a re-analysis of the deposited data

Results flagged for a closer look

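The list of labelled genes of the FACS library also covered 1182743 barcodes outside its list of 4609 cells, which enter no comparison above. Crystallins made up 0.0469% of the gene detections at these barcodes (2587 of 5511537, 0.0451 to 0.0488), where 3 detections would be 5.44e-05%. This was 2.80 times the share in the cells of the same library, 0.0168% (746 of 4449291; ratio interval 2.58 to 3.04), and 2.92 times the share without the crystallin-rich cell. At least 1 crystallin was found at 2364 of these barcodes (0.1999%), against 540 of the 4609 cells (11.7%). Of the 2587 detections, 20 were labelled (0.773%), against 2.68% over all genes there. The lists of the other libraries held cell barcodes only, so this value has no counterpart there. A gene counts once per barcode however many UMIs it has, so a share of detections depends on depth. Depth was very unlike here, with 4449291 detections over 4609 cells and 5511537 over 1182743 other barcodes. Whether crystallin RNA made up a larger part of the RNA outside cells was not tested.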

How the results depend on the processing

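Ratios of summed crystallin CPM kept their direction against the dissociation library under all settings run. The FACS ratio of 0.0286 became 0.0301 without haemoglobin genes in the total, 0.0329 in cells with at least 1000 UMIs, 0.004995 without the 5% of cells with most UMIs and 0.00644 as a mean of cell shares. That of FACS and ice, 0.0104, became 0.00796, 0.0114 and 0.0201 under the last 3 of these. FACS and ice over FACS, 0.362, became 0.345 and 0.242 under the first 2. It turned to 2.29 without the 5% of cells with most UMIs and to 3.12 as a mean of cell shares. Leaving out the 5% of cells with most UMIs removes the 1 crystallin-rich FACS cell. Settings chosen after seeing the data gave, in this order of comparisons, 0.00553, 0.00434 and 0.785 without crystallin-rich cells, and 0.0310, 0.00440 and 0.142 without cells at 20% or more. The share of crystallin-rich dissociation cells, 2.61%, became 22.5% at a limit of 2%, 0.127% at 10%, 0.0634% at 20% and 0.854% in cells with at least 1000 UMIs. After FACS it became 0 at 20%. Leaving out symbols starting crybg changed nothing, since none matched the rule. The crystallin share of haemoglobin-rich cells became 0.177%, 0.09998% and 0.00110% at a limit of 50%, and 0.00100% after FACS without the crystallin-rich cell. Thinning gave 91.7%, 3.99% and 2.87% of cells with a crystallin UMI. The 24 members lower after FACS and ice than after FACS became 13 (of 13) at 250 UMIs and 0 without crystallin-rich cells. With no minimum 1 member, crybb3, was at least 2-fold higher, at 3 and 21 UMIs. The interval of its fold lower, 0.379 (0.113 to 1.27), included no difference. Leaving out crygm2d16, the only highly labelled member of the dissociation and FACS libraries, necessarily left 0 there. Per UMI with at least 250 UMIs the number after FACS was 0, since crygm2d16, with 51 UMIs, fell below this minimum. Neither result tests its labelling. The read-weighted mean T-to-C rate was 0.173% and 0.151% in these libraries. Of 90 values under alternatives, 53 stayed within their counting interval or, for counts, within 1.5 times. No paired analysis was possible because each preparation has 1 library, and leaving out replicates does not apply. Counts under 10 UMIs and tables with under 100 crystallin reads limit what can be compared after sorting.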
